A study of Mus musculus with 8 samples.

Results

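The acute-phase genes Saa3, Hp, C3, Serpina3n, Lcn2, Saa1, Saa2, Cp, Il6 and Stat3 were examined in cultured mouse aortic smooth muscle cells (VSMC) given a moR-21 mimetic or a scrambled control. All probes whose gene symbol was that of a member were taken, which gave 14 probes for the 10 genes, of 25697 probes for 18138 symbols on the array. The members were selected with the difference between these same treatments known, so their values and fold changes stand as a description and no test is given for them. The question of the comparison was which transcripts differed when moR-21 was raised above its natural level. RNA was measured on Illumina BeadChips in 3 samples with the scrambled control oligo and 3 with the moR-21 mimetic, each at 5 nM and taken 48 h after transfection with RNAiMAX. By their titles 2 samples, control 1 and moR-21 3, had 2 arrays each (replicate A and B, here array A and array B), making 8 arrays for 6 samples. These were taken as repeat arrays of the same sample, which the titles do not spell out. The cells of both groups were primary cells grown out of pieces of several mouse aortas with the adventitia removed, and no genetic change is named for either group. The strain, age and sex of these aortas, and whether the triplicates came from separate cultures, are not given in the sources used here, so that p-values measure the spread between these samples, which may be technical.

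moRs are small RNAs cut from the same primary transcript as a miRNA, from the bases just beside the miRNA hairpin. The acute-phase response is the shift in secreted plasma proteins that follows infection or injury. IL-6 and its relatives bind receptors that share gp130 and activate STAT3, and IL-1 and TNF act through NF-kB and C/EBP factors. These signals raise serum amyloid A, haptoglobin, complement C3 and other proteins, mainly in liver but also in fibroblasts, fat and vessel wall cells.

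The place of moR-21 beside miR-21 is shown by the bases of the Mir21a hairpin (RefSeq, GRCm38.p6, minus strand of chromosome 11), since moR-21 comes from the side before miR-21a-5p. The 17 hairpin bases before it lie at chr11:86584142-86584158 and the mature miRNA at chr11:86584120-86584141, where capitals mark the miRNA seed, bases 2 to 8. The exact sequence of the mimetic is not given here.
Mir21a hairpin bases before miR-21a-5p: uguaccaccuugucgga
mmu-miR-21a-5p: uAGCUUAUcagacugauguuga

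The 250 bases before the annotated transcript start are shown for Saa3, C3, Lcn2 and Serpina3n, which were lower or higher in every moR-21 sample. Hp had no promoter window in the source used and was not searched. The other 9 of the 10 genes had 10 windows, because Cp had 2. These windows were searched on both strands for a C/EBP motif (TTGCNNAA), a STAT motif (TTCNNNGAA) and the NF-kB consensus, and capitals mark the C/EBP matches. The windows are Saa3 chr7:46715677-46715926 (minus strand), C3 chr17:57228137-57228386 (minus), Lcn2 chr2:32387740-32387989 (minus) and Serpina3n chr12:104406458-104406707 (plus), from RefSeq, GRCm38.p6. The Saa3 window and the end of the Serpina3n window lie inside the annotated gene, so that the start used is not the outermost of the gene.
Saa3: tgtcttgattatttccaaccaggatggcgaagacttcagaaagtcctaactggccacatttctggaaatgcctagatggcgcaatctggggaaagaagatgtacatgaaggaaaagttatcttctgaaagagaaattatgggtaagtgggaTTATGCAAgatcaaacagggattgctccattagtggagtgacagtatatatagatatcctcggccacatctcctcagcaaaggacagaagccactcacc
C3: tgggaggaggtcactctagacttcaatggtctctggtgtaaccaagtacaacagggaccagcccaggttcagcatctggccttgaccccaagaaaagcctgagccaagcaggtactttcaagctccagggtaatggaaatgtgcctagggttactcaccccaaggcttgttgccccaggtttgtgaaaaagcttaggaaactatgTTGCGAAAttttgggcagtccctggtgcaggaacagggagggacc
Lcn2: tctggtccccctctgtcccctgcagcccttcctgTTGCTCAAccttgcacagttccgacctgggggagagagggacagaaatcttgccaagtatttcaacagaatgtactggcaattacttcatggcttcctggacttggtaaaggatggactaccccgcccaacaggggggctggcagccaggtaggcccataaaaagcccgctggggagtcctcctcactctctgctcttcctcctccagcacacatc
Serpina3n: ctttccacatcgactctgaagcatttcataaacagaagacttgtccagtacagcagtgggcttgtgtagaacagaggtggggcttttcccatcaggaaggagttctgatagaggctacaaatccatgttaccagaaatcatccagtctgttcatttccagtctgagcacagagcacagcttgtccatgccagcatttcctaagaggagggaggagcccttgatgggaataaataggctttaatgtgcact

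The C/EBP motif was found before 7 of the 9 genes with a window, against 9.56% of 32851 mouse promoter windows of the same length. It lay from -99 to -92 bases in Saa3, from -45 to -38 in C3 and from -216 to -209 in Lcn2. Saa1 and Saa2, neighbours with similar upstream sequence, had it at -182 to -175 and -183 to -176, so their matches are not separate observations. Cp had it at -70 to -63 in 1 of its windows and Il6 at -128 to -121. Serpina3n and Stat3 had no match in these windows. The NF-kB consensus was matched in Il6 alone of these genes, from -44 to -35, against 7.25% of all windows, and the STAT motif in 0 of 9 genes, against 7.02%. A match is a stretch of letters and not a shown binding site, and the genes with the motif included members that were lower, members that were not called and members that were not detected.

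**Figure D1:**
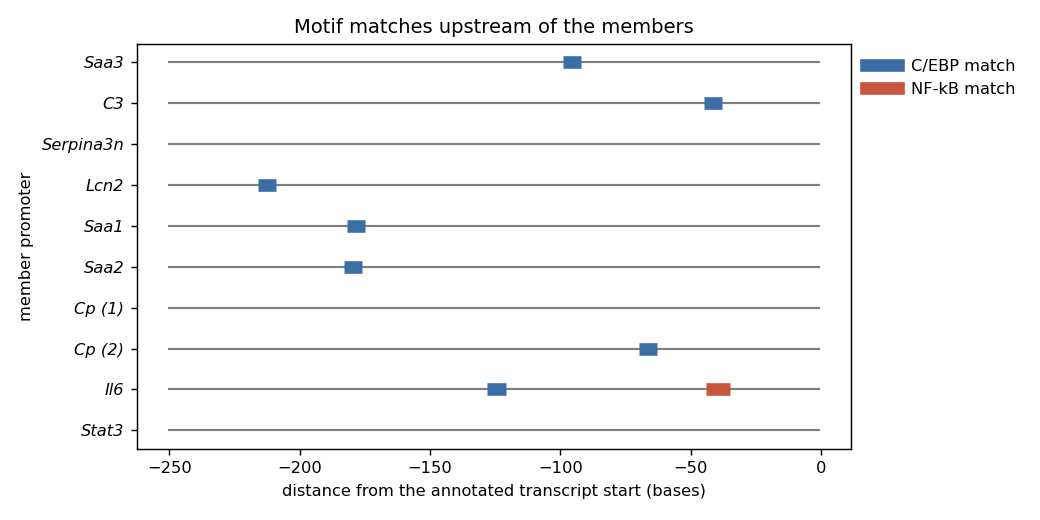
Motif matches before the members. The horizontal axis is the distance in bases from the annotated transcript start and each grey line is the searched stretch of 250 bases of a gene (Cp has 2 windows). Blue bars are C/EBP matches, found before 7 of 9 genes, and the orange bar is the NF-kB match before Il6.

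The arrays were alike in brightness, with median raw intensities of 102 to 109 and 10285 to 10512 detected probes, and log2 signals of the samples correlated at 0.985 to 0.998 across probes. A probe counted as detected where its deposited detection p-value was under 0.01. Of the smooth muscle markers 6 of 9 were detected on at least 1 array, among them smooth muscle actin (Acta2). Cnn1, Myh11 and Myocd were detected on 0 arrays. Tagln was detected on 4 moR-21 arrays and 0 control arrays, so it was counted through the moR-21 group alone. The summed linear signal of this list was 10490 to 10870 in control and 13260 to 14140 in moR-21 samples. Most of this sum was Acta2, whose brightest probe was higher with moR-21 by 0.40 on the log2 scale (SE 0.0474). Its dimmer probes gave larger rises, of 0.73, 0.64 and 0.81. The list did not rise as a whole, with Des at -0.38, Tagln at 0.20, and Smtn, Tpm2 and Lmod1 at -0.05 to 0.05. The sample descriptions call the cells AoECs while the source field calls them smooth muscle cells. Of the endothelial markers 1 of 9 was detected (Vwf), with a signal of 117.1 to 120.2 in control and 118.5 to 126.5 in moR-21 samples, and Pecam1, Cdh5 and Kdr were detected on 0 arrays.

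Among the serum amyloid A genes Saa3 was lower with moR-21 and its liver relatives were at background. Saa3 (7:46711998-46719615, probe ILMN_2772632) is the form of serum amyloid A made outside the liver, a lipoprotein-bound protein that attracts leukocytes. Its log2 signal was 13.20, 13.09 and 13.38 in control samples 1 to 3 and 11.07, 10.98 and 11.13 in moR-21 samples 1 to 3. The groups did not overlap, and the lowest control sample was far above the highest moR-21 sample. The mean was 13.22 ± 0.148 (SD, n = 3) in controls and 11.06 ± 0.0759 with moR-21, a log2 fold change of -2.16 (SE 0.0676), or 4.48-fold lower. By size this ranked 1 among the falls of 8727 genes tested.

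Repeat arrays of a sample lay close together for Saa3, at 13.18 and 13.21 in control sample 1 and 11.15 and 11.10 in moR-21 sample 3. Before normalization the same probe read 7994 to 10520 intensity units on the control arrays and 1942 to 2312 on the moR-21 arrays. The order of the groups was therefore the same in the raw values.

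Saa1 (7:46740497-46743181) and Saa2 (7:46751833-46754313) encode the circulating acute-phase forms and lie beside Saa3 in the same cluster. The Saa1 probe was detected on 1 of the 8 arrays, that of moR-21 sample 1, and entered the fit through that array alone. Its log2 signal was 6.74, 6.65 and 6.78 in controls and 6.83, 6.72 and 6.73 with moR-21, a difference of 0.04 (SE 0.0523). Saa2 was detected on 0 arrays, with signals of 6.58 to 6.75 in controls and 6.70 to 6.71 with moR-21, and was not tested. For both genes the groups overlapped and the signal was that of undetected probes. Saa1 and Saa2 are close copies, the probe sequences were not used here, and which of the pair a probe reads is therefore uncertain.

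Hp (8:109575128-109579172) encodes haptoglobin, which binds free haemoglobin. Its brightest probe (ILMN_2944824) read 10.07, 9.98 and 10.07 on the log2 scale in controls and 8.17, 8.23 and 8.16 with moR-21. Control and moR-21 samples were again fully apart, with little spread within either group. The means were 10.04 ± 0.0493 and 8.19 ± 0.0342 (SD, n = 3), a log2 fold change of -1.85 (SE 0.0471), 3.61-fold lower, which ranked 3 among the falls of all genes tested.

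The other Hp probes gave the same order of samples by treatment. Probe ILMN_2668510 read 9.49, 9.49 and 9.41 in controls and 7.74, 7.66 and 7.64 with moR-21, a log2 fold change of -1.79 (SE 0.0486). Probe ILMN_2668509 read 9.38, 9.38 and 9.42 against 7.77, 7.56 and 7.59, a change of -1.75 (SE 0.0565). Probes of the same gene share the RNA samples and are not separate evidence. Normexp background correction subtracts an estimate of the background signal. With it the 3 log2 fold changes became -2.22, -2.36 and -2.34 (Saa3 -2.21), all larger falls than without the correction. Hp then fell slightly more than Saa3, so the first rank of Saa3 depends on the background correction.

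**Figure D2:**
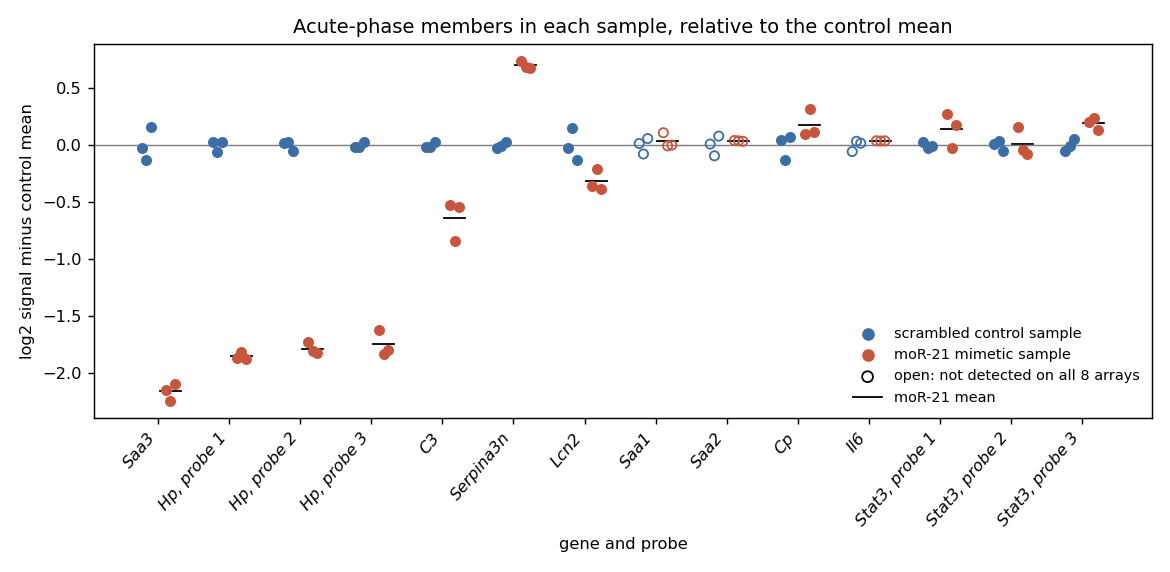
Log2 signal of every member probe in each sample minus the mean of the 3 control samples. Blue points are scrambled control samples, orange points moR-21 samples, black lines the moR-21 means, and open points probes not detected on all 8 arrays. Saa3 and the 3 Hp probes lie about 2 log2 units below their controls, C3 at -0.64, and Serpina3n at 0.70, while Saa1, Saa2, Cp, Il6 and Stat3 lie near 0.

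C3 (17:57203967-57228136, probe ILMN_2759484) encodes the complement component on which the activation pathways converge. The log2 signal was 12.81, 12.81 and 12.86 in controls and 12.30, 11.99 and 12.28 with moR-21. All moR-21 samples were below all controls, and moR-21 sample 2 was the lowest. The log2 fold change was -0.64 (SE 0.0704), 1.55-fold lower, rank 120 among the falls. Without moR-21 sample 2 it was -0.53.

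Lcn2 (2:32384637-32387739, probe ILMN_2712075) encodes lipocalin 2, which withholds iron from bacteria by binding their siderophores. It read 9.39, 9.57 and 9.29 on the log2 scale in controls and 9.06, 9.21 and 9.04 with moR-21. The groups did not overlap, but moR-21 sample 2 came close to control sample 3. The log2 fold change was -0.32 (SE 0.0683), 1.24-fold lower, under the 1.3-fold cutoff, and without control sample 3 it was -0.38 and past both cutoffs.

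Serpina3n (12:104406646-104414334, probe ILMN_1246800) was the member that was higher. It encodes a secreted inhibitor of serine proteases related to human antichymotrypsin, and it belongs to a cluster of close copies, among which a probe may be shared. Its log2 signal was 8.55, 8.57 and 8.61 in controls and 9.32, 9.27 and 9.26 with moR-21. The samples fell into separate groups with a narrow spread in each. The log2 fold change was 0.70 (SE 0.0452), 1.63-fold higher, rank 36 among the rises of the genes tested.

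Cp (3:19956933-20009750, probe ILMN_3083163) encodes ceruloplasmin, the copper-bearing plasma ferroxidase. It read 8.89, 8.71 and 8.91 in controls and 8.94, 9.15 and 8.95 with moR-21, a log2 difference of 0.18 (SE 0.0668) that was not called. The moR-21 samples lay just above the controls, but arrays A and B of control sample 1 alone differed by 0.38, more than the treatments did.

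**Figure D3:**
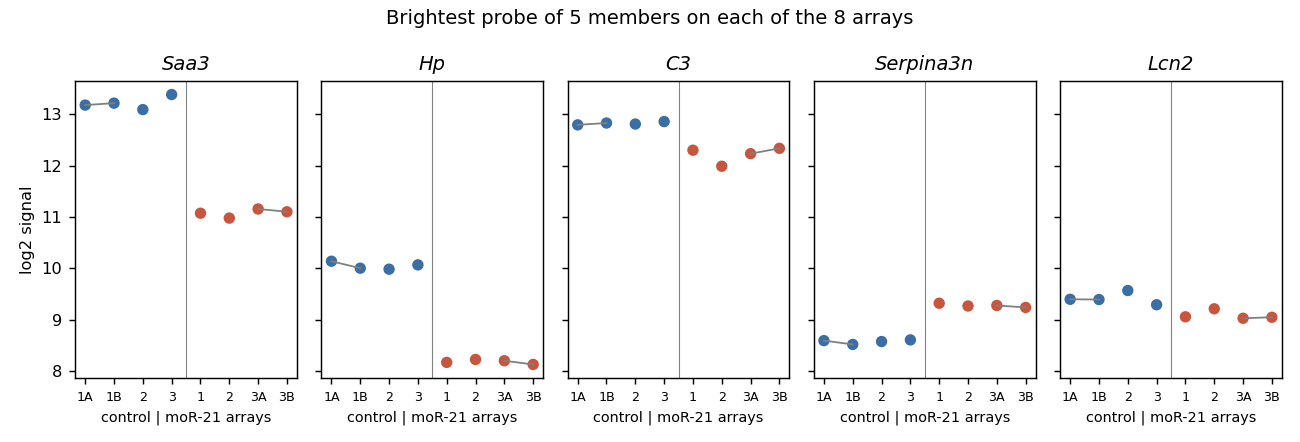
Log2 signal of the brightest probe of Saa3, Hp, C3, Serpina3n and Lcn2 on each of the 8 arrays, with control arrays in blue, moR-21 arrays in orange and grey lines joining arrays A and B of the same sample. The repeat arrays lie within 0.14 log2 units of each other for these 5 genes, while the log2 fold change between treatments is -2.16 for Saa3 and -1.85 for Hp.

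Of the upstream members Stat3 was not called and Il6 could not be tested. Il6 (5:30013114-30019975, probe ILMN_1243601), the cytokine that drives the response, was detected on 0 arrays and was not tested, with log2 signals of 6.60 to 6.69 in controls and 6.69 to 6.70 with moR-21, where probes are not above background. Stat3 (11:100886806-100939594) encodes the transcription factor activated by the IL-6 family. Its brightest probe (ILMN_2589790) read 9.97, 9.92 and 9.93 in controls and 10.21, 9.91 and 10.12 with moR-21, a difference of 0.14 (SE 0.0646) with overlapping groups. Probe ILMN_2698046 differed by 0.01 (SE 0.0604) and also overlapped. Probe ILMN_3096144 differed by 0.19 (SE 0.0494), with all 3 moR-21 samples above all controls. None of the 3 Stat3 probes was called, and they differed in whether the groups overlapped.

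Of the 10 members 8 passed the detection filter, Saa1 through a moR-21 array alone. A gene was called at its brightest detected probe where it changed over 1.3-fold with an adjusted p under 0.002 in limma. By these cutoffs 4 members were called, of which Saa3, Hp and C3 were lower and Serpina3n higher. Over all 8727 genes tested 7.79% were called, 4.38% lower and 3.41% higher, and the members were chosen on this contrast, so nothing is read from their count. The groups did not overlap for 6 members (Saa3, Hp, C3 and Lcn2 below, Serpina3n and Cp above), beside 46.3% of all genes tested. The median log2 fold change of all genes was 0.01.

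Some markers of other cell types also differed. Mesothelial genes, 3 of 7 on the array detected, summed to 1341 to 1441 linear signal units in controls and 770.8 to 816.9 with moR-21. Upk3b had a log2 fold change of -1.24 (SE 0.0463, limma adjusted p = 2.51e-10) and Bnc1 -0.66 (SE 0.0654, adjusted p = 3.43e-06), while Krt19 differed by -0.13 and Msln, Krt8, Krt18 and Lrrn4 were detected on 0 arrays. Fibroblast genes, 4 of 5 detected, summed to 13800 to 14380 against 11180 to 12440, and Lum fell by 0.56 (adjusted p = 2.21e-06). Pi16 of this list was detected on 4 control arrays and 0 moR-21 arrays, so it was counted through the controls alone. Macrophage genes, 2 of 10 detected, summed to 273.6 to 279.5 against 333.2 to 342.9, and Lyz2 rose by 0.48 (adjusted p = 1.79e-06). The rise of this sum was that of Lyz2, since Csf1r differed by -0.01 with overlapping groups. Adgre1, Itgam, Ptprc, Mrc1, C1qa, C1qb, Tyrobp and Cd68 were detected on 0 arrays. Hepatocyte genes, with only Ahsg detected of 6, summed to 132.2 to 141.3 against 105.3 to 112.7. Ahsg was detected on 4 control arrays and 1 moR-21 array. Neutrophil genes, with only Camp detected of 7, summed to 112.2 to 131.4 against 108 to 115.2. Camp was detected on 3 control arrays and 1 moR-21 array, its groups overlapped and it was not called. The part of these shifts in the values of Saa3, Hp, C3 and Serpina3n was not tested, and in bulk RNA fewer cells of a type and less RNA per cell cannot be told apart.

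Other plasma proteins of the acute-phase response included Lbp and Chi3l1 on the lower side. This list and those of complement, the IL-6 and STAT3 pathway and the receptors and partners were chosen with earlier results of these data known. Their shares of called genes rest on few genes and stand as a description, from which nothing is read. Of 45 listed genes 14 were tested, and 2 were called lower and 0 higher (14.3%, beside 7.79% of all genes tested), with a median log2 fold change of -0.09 against 0.01 over all genes. Lbp, the plasma protein that hands bacterial lipopolysaccharide to its receptor, read 9.73, 9.83 and 9.71 in controls and 8.94, 9.06 and 9.09 with moR-21, groups well apart. Its log2 fold change was -0.73 (SE 0.0537, limma adjusted p = 2.13e-07). Chi3l1, a secreted chitinase-like protein, was detected on all 4 control arrays and on 0 moR-21 arrays, and so passed the detection filter through the controls alone. It was at least 1.28-fold lower, the control mean being set against the dimmest detected signals of the moR-21 arrays, and this bound is under the 1.3-fold cutoff. With detection on all 8 arrays required, 1 gene of the list was called, and with normexp background correction 3. Among the 12 genes not called were Timp1 at 0.04 and the Serpina3 cluster genes Serpina3g at 0.30 and Serpina3h at 0.26, which were named here after their values were seen. The 2 negative acute-phase proteins tested, Ahsg at -0.34 and Trf at -0.12, were not called.

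Genes of the complement system that work with C3 were on the lower side where they were called. Of 33 listed genes 12 were tested, with 3 called lower and 0 higher (25%, beside 7.79% of all genes tested) and a median log2 fold change of -0.11. C4b, the component that forms the classical C3 convertase, fell by 0.46 (SE 0.0484, limma adjusted p = 5.83e-06). C1s, the protease that cleaves it, fell by 0.41 (SE 0.0465, adjusted p = 1.22e-05). Cd55, which speeds the decay of the convertases, fell by 0.45 (SE 0.0530, adjusted p = 1.86e-05). The called genes thus included an inhibitor of the cascade beside components of it, and 9 genes were not called, with the largest rise C8g at 0.14. A dimmer C1s probe differed by -0.33 and was not called.

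In the IL-6 and STAT3 pathway Nfkbiz, Junb and Ctf1 were called lower and Osmr higher. Of 44 listed genes 32 were tested, and the 4 called were 12.5%, beside 7.79% of all genes tested, while the median log2 fold change was -0.01. The receptor Osmr, which pairs with gp130 to bind oncostatin M, read 9.43, 9.36 and 9.29 in controls and 10.10, 9.71 and 9.74 with moR-21. It was higher in every moR-21 sample, most of all in sample 1, by a log2 fold change of 0.49 (SE 0.0843, limma adjusted p = 4.71e-04). The call of Osmr was lost without control sample 2, without moR-21 sample 1, with normexp, with median scaling and with no detection filter. Among the targets and transcription factors 2 of 8 tested were called lower. Nfkbiz, a nuclear partner of NF-kB needed for Il6 and Lcn2 induction in macrophages, read 9.90, 10.06 and 9.85 in controls and 9.45, 9.54 and 9.46 with moR-21 (log2 fold change -0.45, SE 0.0576, adjusted p = 3.52e-05). Junb, an AP-1 subunit and IL-6 target, fell by 0.39 (SE 0.0599, adjusted p = 1.85e-04).

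Of the 9 ligands 2 were detected, and cardiotrophin 1 (Ctf1), a gp130 cytokine, fell by 0.38 (SE 0.0491, limma adjusted p = 4.19e-05). The kinases Jak1, Jak2 and Tyk2 were not called (-0.06 to 0.06), nor were the other STATs or any of the 8 inhibitors. Socs3, the STAT3-induced inhibitor of gp130 signalling, singled out after its value was seen, had a log2 fold change of -0.36 (adjusted p = 2.94e-05) and missed the 1.3-fold cutoff. The shared receptor gp130 (Il6st) was at 0.24 and Cebpb at -0.13, neither called. The count of 4 genes was 1 without control sample 2 and 2 with normexp background correction or with array B alone. The genes called lower then numbered 1 without control sample 2, 1 with array B alone and 2 with normexp. Ctf1 lay only just past the 1.3-fold cutoff and Junb close to it, so the lower calls also depend on the setting.

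Receptors and partners of the members differed most among the iron genes that work with ceruloplasmin. Of 25 listed genes 13 were tested, 2 were called lower and 1 higher (23.1%, beside 7.79% of all genes tested), with a median of -0.03. Slc40a1 (ferroportin), the iron exporter whose iron ceruloplasmin oxidises, read 9.05, 8.78 and 8.93 in controls and 8.25, 8.17 and 8.21 with moR-21, a log2 fold change of -0.71 (SE 0.0616, limma adjusted p = 1.03e-06). The transferrin receptor Tfrc, which takes iron in, read 7.12, 7.10 and 7.18 against 7.84, 7.98 and 7.79, a change of 0.74 (SE 0.0547, adjusted p = 2.13e-07). Slc40a1 was lower and Tfrc higher in every moR-21 sample, and a dimmer Tfrc probe gave 0.71. Slc11a2, which also carries iron into the cytosol, was at -0.18 with all moR-21 samples below the controls, and the iron store Fth1 at -0.15, neither called. On the haem route of haptoglobin, haem oxygenase Hmox2 fell by 0.42 (SE 0.0516, adjusted p = 2.37e-05), while Hmox1 differed by 0.08 and was not called. Blvrb went the other way, at 0.33 with all moR-21 samples above the controls, and was not called. Of the serum amyloid A receptors, Tlr2, Tlr4 and Ager were tested and 0 were called.

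**Figure D4:**
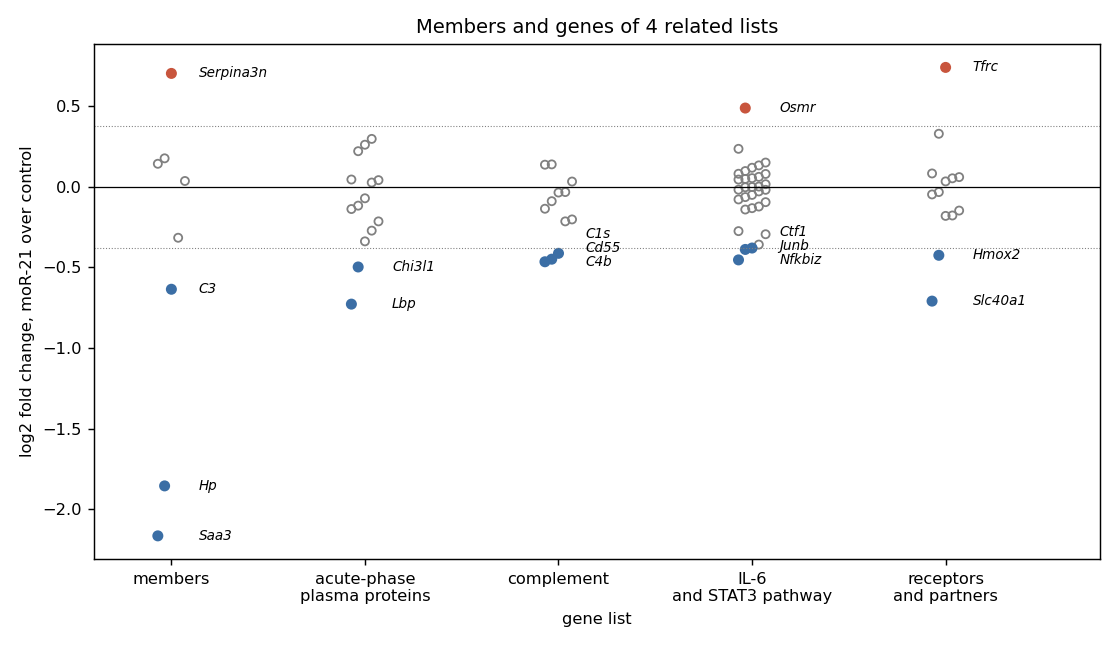
Log2 fold change, moR-21 over control, of the 8 tested members and of the tested genes of the 4 related lists. Filled points are genes called changed (blue lower, orange higher, with names), open grey points genes not called, and dotted lines the 1.3-fold cutoff. Saa3 and Hp lie below all genes of the 4 lists, whose lowest is Lbp at -0.73 and whose highest is Tfrc at 0.74.

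Among genes that are not members, those with the nearest profile to Saa3 and Hp over the 6 samples were found by the root mean square difference of log2 signal after subtraction of each control mean. For Saa3 they were Txndc5, a disulfide isomerase of the endoplasmic reticulum (0.139), the membrane glycoprotein Nptn (0.321) and the secreted BMP-binding protein Twsg1 (0.461). For Hp they were Nptn (0.136), Txndc5 (0.141) and Twsg1 (0.244). Saa3 and Hp themselves were 0.237 apart by this measure. For changes this large the measure mostly reflects the size of the fall, on which the members were chosen. The nearest genes are therefore other large falls, and no shared regulation is read from them. Txndc5 read 10.74, 10.68 and 10.68 in controls and 8.63, 8.61 and 8.80 with moR-21, so that its fall was of like size to those of Saa3 and Hp.  For Serpina3n the nearest were Crip2 (0.0345), Ppap2b (0.0428) and Tk1 (0.0511), all close to its rise of 0.70.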

How the data were processed

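The authors deposited probe intensities as non-normalized values, with a detection p-value beside each intensity; background correction is not stated. The study's methods name MouseWG-6 v2.0 and MouseRef-8 v2.0 designs, quantile normalization, lumi and limma. Here quantile normalization was applied to the 8 arrays together and log2 values of repeat arrays were averaged per sample. A filter kept 11651 probes, those detected (p-value below 0.01) on 1 or more arrays, and limma 3.58.1 (R 4.3.3; lmFit, eBayes) compared the treatments on them without covariate. Calls needed a fold change over 1.3 and a Benjamini-Hochberg adjusted p under 0.002 over all probes. The detected probe with the highest mean signal stood for a gene. The fit was also run on simulated data with changes larger than the 1.3-fold cutoff, which does not check calls near that cutoff. Members and lists were chosen with earlier results of these data known. The genes named were all members, every called gene of each list, the 3 nearest profiles of Saa3, Hp and Serpina3n, and others said to be chosen later. Positions and upstream sequences came from RefSeq (GRCm38.p6). Samples were taken as replicates by their titles, and all columns were assigned (0 left without a sample). The number of arrays limits the precision. Alternatives were normexp (offset 16), median scaling, cyclic loess, detection filters, array A or B alone, trend and robust eBayes, a replicate block, the mean of a gene's probes, an adjusted p under 0.05 and each sample left out. Slides were not analysed here.

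Deviations of same-numbered samples from their group means correlated weakly and positively (0.187, 0.0441 and 0.0597). Other pairs ran from -0.129 to 0.0693, the highest being control sample 3 with moR-21 sample 2. These values do not settle whether the samples were paired. The main fit did not treat them as pairs, and a replicate block was run as an alternative.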

Additional observations from a re-analysis of the deposited data

How the results depend on the processing

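The log2 fold changes kept their direction under all alternatives run for Saa3 (-2.23 to -2.08), Hp (-2.22 to -1.80), C3 (-0.69 to -0.53), Serpina3n (0.68 to 0.85), Lcn2 (-0.38 to -0.24), Cp (0.09 to 0.26) and Stat3 (0.08 to 0.23), and of these only Lcn2 changed its side of the cutoffs (-0.38 without control sample 3). Saa1, at background, reversed to -0.0027 with array A alone, -0.0021 without control sample 2 and -0.0013 without moR-21 sample 1, and over single samples left out it ranged from -0.0021 to 0.0658. The members called were 4 to 5. The IL-6 and STAT3 count of 4 was 2 with normexp, 2 with array B alone and 1 to 4 over single samples left out, with 1 without control sample 2; the cause was not tested. The acute-phase list count of 2 was 1 when detection on all 8 arrays was required, since Chi3l1 then was not tested, and 3 with normexp. Complement counts were 2 to 3 and receptor and partner counts 3 throughout. Control levels moved beyond 1 SD for 8 of 10 members with normexp and for 1 each with median scaling, array A alone and array B alone.

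With the replicate number as a block, 815 probes were called in place of 811, with all 811 shared. The block left 4 members called and changed no member's side of the cutoffs, the Saa3 log2 fold change staying at -2.16. The signal over background limits Saa1, Saa2 and Il6, which were detected on 0 or 1 arrays.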

Other observations

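The genes within 100 kb of the members that differed most were looked up after the results were known, with positions from GRCm38.p6. None of the detected neighbours of Saa3, Hp, C3, Serpina3n or Lcn2 was called, beside 7.79% of all genes tested. The detected neighbours are few, so nothing is read from this. Beside Saa3 in the serum amyloid A cluster, Saa4 was detected on 0 arrays, and the log2 fold change was -0.02 for Sergef, -0.21 for Hps5 and -0.16 for Gtf2h1. Txnl4b, 1077 bases from Hp, was at -0.15, and Dhx38 and Dhodh, farther away, were at 0.01 and -0.04. Ist1, the farthest of the detected genes near Hp, had the largest value there, -0.23. Trip10 beside C3 was at 0.23 and Gpr108 at -0.11. Beside Serpina3n, its relatives Serpina3k and Serpina3m were detected on 0 arrays and Gsc was at 0.00. Near Lcn2 the largest values were Golga2 at -0.29 and 1110008P14Rik at 0.30.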
